A study of Caenorhabditis elegans with 4 samples.

Results

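The lysozyme, saposin-like and caenacin defense genes of Caenorhabditis elegans were taken as every gene of the deposited count matrices whose symbol is lys, ilys, spp, abf or cnc followed by a number. This rule found 56 of 46926 annotated features, namely 10 lys, 6 ilys, 23 spp, 6 abf and 11 cnc genes. Levels were measured in nuclei of whole day 1 adults by single-nucleus RNA sequencing, in which nuclei stained with Hoechst were sorted and their RNA was tagged with unique molecular identifiers (UMIs). The study asked how the nucleoside transporter genes ent-1 and ent-2 act in different tissues, and it sequenced 1 library for each of 4 conditions. The ctrl library came from the wild-type strain N2, the ent-1KO library from an ent-1 mutant and the ent-2KO library from an ent-2 mutant, all kept on HT115 bacteria with the L4440 control vector. The ent-1KO;ent-2KD library came from the same ent-1 mutant kept on HT115 bacteria that deliver ent-2 RNAi through the food. Each library pooled the nuclei of many worms, so that there was no biological replicate and no test between conditions. Intervals in square brackets are exact 95% intervals for the counting of UMIs only, and the comparisons with ctrl share that library.

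The nematode has no mobile immune cells, and it relies on secreted proteins at the surfaces that meet microbes, the gut lumen and the cuticle. Lysozymes (lys genes of the protist type and ilys genes of the invertebrate type) cut the peptidoglycan of bacterial cell walls. Saposin-like proteins (spp genes) resemble the amoebapores, which insert into membranes, and some saposin-like proteins instead handle lipids in the lysosome. The abf genes encode defensin-like antibacterial factors, and the caenacins (cnc genes) are short glycine-rich peptides known from the epidermis, where fungal infection and wounding induce several of them.

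The libraries kept 10577 nuclei in ctrl, 13151 in ent-1KO, 11190 in ent-2KO and 11744 in ent-1KO;ent-2KD, with median depths of 1392 to 1835 UMIs a nucleus. Pairs of libraries shared 43 to 61 cell barcodes, at most 0.465% of the smaller library. The targeted gene ent-1 lay at 139.97 counts per 1000000 UMIs (CPM) in ctrl, 16.9 CPM in ent-1KO, 142 CPM in ent-2KO and 14.5 CPM in ent-1KO;ent-2KD, and ent-2 lay at 26.4, 24.5, 9.46 and 16.8 CPM in the same order. Nuclei were clustered without the members and the clusters were named "-like" from lists of marker genes. Intestine-like nuclei numbered 226, 358, 250 and 553 in ctrl, ent-1KO, ent-2KO and ent-1KO;ent-2KD, and hypodermis-like nuclei 549, 830, 744 and 2080. A larger cluster, called ribosomal-rich here, had 27 of 30 intestine markers raised and was led by B0035.13, asp-6, asp-14 and C17F4.7, with the member spp-14 among its 10 leading genes. It was left unnamed because 20.4% of its UMIs came from ribosomal protein genes, against a median of 8.00% over clusters. It held 963, 1964, 702 and 1657 nuclei. The composition of the libraries differed, since germline-like nuclei made up 57.9%, 54.4% and 56.5% of ctrl, ent-1KO and ent-2KO and 25.5% of ent-1KO;ent-2KD. Levels of members are therefore given within a class or cluster, as CPM of its UMIs. The ent-1 and ent-2 levels above were instead taken over all nuclei of a library. The part of the composition in them was not tested.

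Of the 56 members, 37 had at least 50 UMIs over all nuclei, 17 had 1 to 49 and 2 had none (spp-21 and cnc-1). The members seen too rarely to describe by class were 3 lys, 4 ilys, 6 spp, 2 abf and 4 cnc genes. Members lay on each of the 6 chromosomes of the assembly WBcel235, with 19 on V, 14 on X, 13 on IV, 6 on I, 2 on II and 2 on III. They often lay side by side, and 32 of them had another member within 20 kb, in 11 groups. The longest such run, on chromosome V from 1442342 to 1450183, held cnc-11, cnc-1, cnc-5, cnc-4, cnc-3 and cnc-2. A run on chromosome X from 7314969 to 7320354 held spp-3, spp-2, spp-6, spp-4 and spp-5. The genes lys-1, lys-2 and lys-3 lay together on chromosome V from 10277904 to 10283544, and lys-4, lys-5 and lys-6 on chromosome IV from 11621429 to 11627947.

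The members fell into a few tissue patterns that cut across the gene families. Over the 36 members with at least 50 UMIs in the classes compared, the highest mean CPM over the 4 libraries lay in intestine-like nuclei for 11 members, in the ribosomal-rich nuclei for 9, in hypodermis-like nuclei for 6, in muscle-like nuclei for 3, in uterus and vulva-like nuclei for 3, in pharyngeal muscle-like nuclei for 2, in neuron-like nuclei for 1 and in gonadal sheath and spermatheca-like nuclei for 1. By family, 4 lys genes were highest in intestine-like and 3 in the ribosomal-rich nuclei, and 5 cnc genes were highest in hypodermis-like and 2 in uterus and vulva-like nuclei. Of the spp genes, 6 were highest in intestine-like nuclei, 6 in the ribosomal-rich nuclei, 3 in muscle-like nuclei, 1 in hypodermis-like nuclei (spp-11) and 1 in uterus and vulva-like nuclei (spp-13). Some of these ranks by mean CPM were near ties. spp-11, on 55 UMIs, was highest in its class in 0 of the 4 libraries, and spp-13 in 2, at 1.01 times its next class. spp-8 (intestine-like) and lys-2 (ribosomal-rich) were highest there in 1 library each, at 1.03 and 1.10 times the next class. These are comparisons of 1 gene between classes, since levels of different genes were not set against each other.

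**Figure D1:**
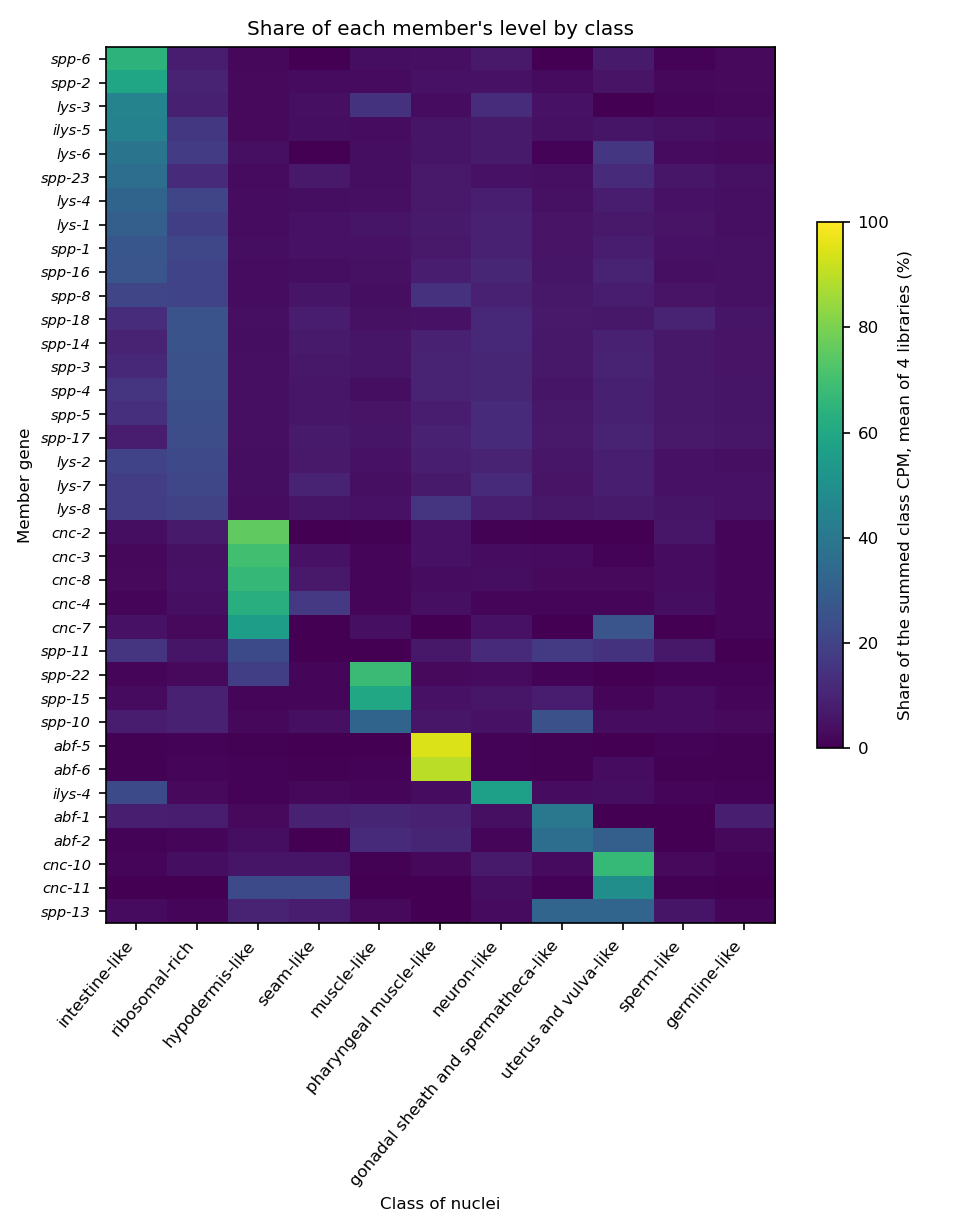
Share of each member's summed class CPM (mean of the 4 libraries) found in each of 11 classes of nuclei, for the 37 members with at least 50 UMIs. Rows run by member and columns by class, and the bright cells show abf-5 and abf-6 in pharyngeal muscle-like nuclei (94.7% and 89.6%) and cnc-2, cnc-3 and cnc-8 in hypodermis-like nuclei (75.5%, 69.8% and 66.7%).

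Among the intestinal members, ilys-5, an invertebrate-type lysozyme gene on chromosome X from 6533490 to 6536840, held 5705 CPM in ctrl, 6639 CPM in ent-1KO, 6443 CPM in ent-2KO and 6828 CPM in ent-1KO;ent-2KD in intestine-like nuclei. Its level in the ribosomal-rich nuclei was 2452, 2426, 1669 and 2798 CPM, so that ilys-5 was 2.33 to 3.86 times higher in intestine-like nuclei in every library. The saposin-like gene spp-2 was more restricted, at 168, 246, 437 and 215 CPM in intestine-like nuclei and 36.9, 54.4, 48.4 and 34.3 CPM in the ribosomal-rich nuclei. Its share of the summed class CPM was 59.2%, and that of its neighbour spp-6 was 64.7% on only 71 UMIs. Among lys genes the shares in intestine-like nuclei were highest for lys-3 (44.8%) and lys-6 (38.6%), which had 125 and 183 UMIs.

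The intestine-like and the ribosomal-rich nuclei differed in which members they held. Of 25 members with at least 50 UMIs in the pair of classes, 6 were higher in intestine-like nuclei in all 4 libraries (ilys-4, spp-2, spp-23, ilys-5, lys-1 and lys-4), 10 were lower in all 4, and 9 were mixed. The lower group held spp-17, spp-14, spp-3, spp-5, spp-4 and spp-18. For spp-17 the ribosomal-rich nuclei held 2620, 3460, 2384 and 3799 CPM against 1141, 1154, 877 and 937 CPM in intestine-like nuclei. Neighbouring genes could fall on opposite sides. In the run on chromosome X, spp-2 was 6.13 times higher in intestine-like nuclei while spp-3, spp-4 and spp-5 were at 0.444, 0.608 and 0.567 of their ribosomal-rich level. On chromosome I, spp-23, which shares a stretch of 2.75 kb with spp-17, was 2.998 times higher in intestine-like nuclei.

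Members of the intestine-like and ribosomal-rich nuclei were also counted outside these classes, and not always at a low level. For spp-17 the second highest class was the neuron-like nuclei, at 1494, 1646, 1169 and 2077 CPM, above its intestine-like levels. In germline-like nuclei ilys-5 stood at 0.204 to 0.219 of its ribosomal-rich level over the 4 libraries, lys-1 at 0.217 to 0.225, lys-4 at 0.181 to 0.209 and lys-2 at 0.185 to 0.224. The saposin-like genes spp-3 and spp-16 lay at 0.206 to 0.246 and 0.210 to 0.254, while spp-2 lay at 0.224 to 0.294, spp-23 at 0.316 to 0.464 and lys-6, on 81 UMIs, at 0.114 to 0.205. The summed intestine markers in germline-like nuclei were 6778 CPM in ctrl and 10016 CPM in ent-1KO;ent-2KD against 31277 and 47350 CPM in the ribosomal-rich nuclei. The part of free RNA in these counts was not tested, and the levels of intestinal members outside these classes are given as measured. abf-6 was counted in few germline-like nuclei. The share of nuclei with an abf-6 UMI, after thinning each nucleus to 500 UMIs, was 12.6%, 20.0%, 12.6% and 16.5% in pharyngeal muscle-like nuclei of ctrl, ent-1KO, ent-2KO and ent-1KO;ent-2KD (21.4%, 27.6%, 19.8% and 25.6% before thinning) and 0.0653%, 0.0979%, 0.0792% and 0.334% in germline-like nuclei. Median depths were 1215, 1377, 1246 and 1347 UMIs in the first class and 1525, 2076, 1834 and 2086 UMIs in the second.

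The hypodermis-like nuclei carried the caenacins. cnc-8, on chromosome X from 10306595 to 10306951, lay there at 524 CPM in ctrl, 703 CPM in ent-1KO, 690 CPM in ent-2KO and 1143 CPM in ent-1KO;ent-2KD, 9.52 times its level in the next class, the seam-like nuclei. cnc-3 lay at 79.4, 109.8, 84.0 and 79.4 CPM, 14.01 times its level in the next class, and cnc-2 at 26.6, 22.96, 39.0 and 25.4 CPM. cnc-7 held 8.19, 5.74, 11.8 and 4.65 CPM. The 5 hypodermis-like clusters differed in their caenacins. cnc-8 was counted in each of the 5 in every library except in the ctrl nuclei of cluster 32, and in the largest, cluster 3 (led by pqn-72 and ztf-26), it lay at 439, 617, 570.5 and 983 CPM. cnc-4 was lower in cluster 3, at 15.96, 43.6, 14.3 and 41.4 CPM, than in cluster 14 (led by F15E6.3 and vap-2), at 128, 132, 157 and 328 CPM. cnc-3 had the opposite order, at 90.0, 131, 98.2 and 88.2 CPM in cluster 3 and 43.9, 48.1, 30.8 and 54.2 CPM in cluster 14. cnc-3 and cnc-4, which lie in the same run of genes, thus had opposite orders between clusters 3 and 14 in every library. The saposin-like gene spp-22 also differed between these clusters, at 59.4, 58.7, 52.01 and 95.5 CPM in cluster 3 and 0 to 14.5 CPM in cluster 14.

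Other caenacins lay elsewhere. cnc-10 was highest in uterus and vulva-like nuclei, at 62.7 CPM (11 UMIs) in ctrl, 85.1 CPM (10 UMIs) in ent-1KO, 149 CPM (24 UMIs) in ent-2KO and 119.04 CPM (26 UMIs) in ent-1KO;ent-2KD. A further unnamed cluster of 343 nuclei led by ZC443.1 and nlp-16 held 157 of its 674 UMIs, or 438 CPM [373 to 513]. cnc-11 was highest by mean CPM in uterus and vulva-like nuclei on 13 UMIs in all, while hypodermis-like nuclei held 175 of its UMIs, at 6.66, 10.8, 2.84 and 18.5 CPM.

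Muscle-like nuclei carried 3 saposin-like genes. spp-22 held 187, 215, 171 and 207 CPM in ctrl, ent-1KO, ent-2KO and ent-1KO;ent-2KD, 3.66 times its level in hypodermis-like nuclei. spp-15 held 110.3, 154, 121 and 109.6 CPM, 6.37 times its level in the next class. spp-10, which encodes a prosaposin-like protein, held 452, 452, 412 and 305 CPM in muscle-like nuclei and 432, 406, 259 and 150.03 CPM in gonadal sheath and spermatheca-like nuclei. In pharyngeal muscle-like nuclei, the adjacent genes abf-5 and abf-6 on chromosome X from 12792854 to 12794870 held 94.7% and 89.6% of their summed class CPM, with abf-6 at 508, 609, 363 and 673 CPM and 25.9 times its next class. The invertebrate-type lysozyme gene ilys-4 was highest in neuron-like nuclei, at 195, 186, 128 and 116.26 CPM, with a second level of 63.4, 86.3, 41.6 and 58.9 CPM in intestine-like nuclei and 4.86, 8.16, 4.84 and 11.9 CPM in the ribosomal-rich nuclei. ilys-4 was therefore 4.94 to 13.04 times higher in the intestine-like than in the ribosomal-rich nuclei. abf-1 was highest in gonadal sheath and spermatheca-like nuclei (40.1% of its summed class CPM), and of the 20 UMIs of abf-4, 10 UMIs or 117 CPM [56.2 to 216] came from a glia-like cluster of 43 nuclei.

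lys-2, on the minus strand of chromosome V from 10280307 to 10281474, showed the largest difference between libraries among the lysozyme genes past the minimum of 50 UMIs in intestine-like nuclei. It had been named beforehand as raised in these data, so its values and this rank are a description and not a finding. In intestine-like nuclei it held 105 CPM in ctrl (43 UMIs), 205 CPM in ent-1KO (159 UMIs), 83.1 CPM in ent-2KO (38 UMIs) and 411 CPM in ent-1KO;ent-2KD (747 UMIs). The level was thus highest when both transporter genes were targeted, intermediate with ent-1 alone and not higher than ctrl with ent-2 alone. Set against ctrl, ent-1KO;ent-2KD gave a log2 ratio of 1.96 [1.53 to 2.45], ent-1KO 0.95 [0.47 to 1.49] and ent-2KO -0.33 [-1.003 to 0.33], and against ent-1KO the ent-1KO;ent-2KD library stood at 1.00 [0.76 to 1.26]. The summed intestine markers in the same nuclei were close to each other, at 29693, 32942, 30985 and 31977 CPM. The share of intestine-like nuclei with a lys-2 UMI, after thinning to 500 UMIs, was 4.42%, 9.50%, 4.40% and 19.7% (15.9%, 26.3%, 14% and 51.9% before), and in germline-like nuclei 1.13%, 2.40%, 1.25% and 6.74%.

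Outside the intestine-like nuclei ent-1KO;ent-2KD was again highest, while ent-2KO was not at or below ctrl in every class. The thinned share in germline-like nuclei, for example, was 1.25% in ent-2KO and 1.13% in ctrl, with overlapping intervals. In the ribosomal-rich nuclei lys-2 lay at 78.7 CPM in ctrl, 195 CPM in ent-1KO, 77.4 CPM in ent-2KO and 535 CPM in ent-1KO;ent-2KD, with log2 ratios to ctrl of 1.30 [0.96 to 1.67], -0.02 [-0.52 to 0.47] and 2.76 [2.44 to 3.11]. In ent-1KO;ent-2KD, lys-2 was above ctrl in all 11 classes compared, with log2 ratios from 1.96 in intestine-like to 4.60 [2.65 to 10.5] in seam-like nuclei, where ctrl had 1 UMI, and above ent-1KO in all 11, with log2 ratios from 1.00 to 2.72. In hypodermis-like nuclei it went from 13.8 CPM to 94.1 CPM, and in neuron-like nuclei from 33.4 CPM to 269 CPM. The summed intestine markers were also higher in ent-1KO;ent-2KD than in ctrl outside the intestine-like nuclei, going from 6982 to 10519 CPM in hypodermis-like nuclei, from 13209 to 26156 CPM in neuron-like nuclei and from 5624 to 12715 CPM in muscle-like nuclei. In 1 alternative, free RNA was subtracted as the summed profile of all kept nuclei of a library, scaled by markers of other tissues. That profile was not measured outside nuclei and also holds the RNA of the class itself. With free RNA subtracted in this way, the lys-2 ratio in hypodermis-like nuclei was 3.40 [2.44 to 4.82], against 2.74 as counted. The subtraction took 46.6% of the UMIs of these nuclei in ctrl and 20.4% in ent-1KO;ent-2KD, and its part in the larger ratio was not tested.

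**Figure D2:**
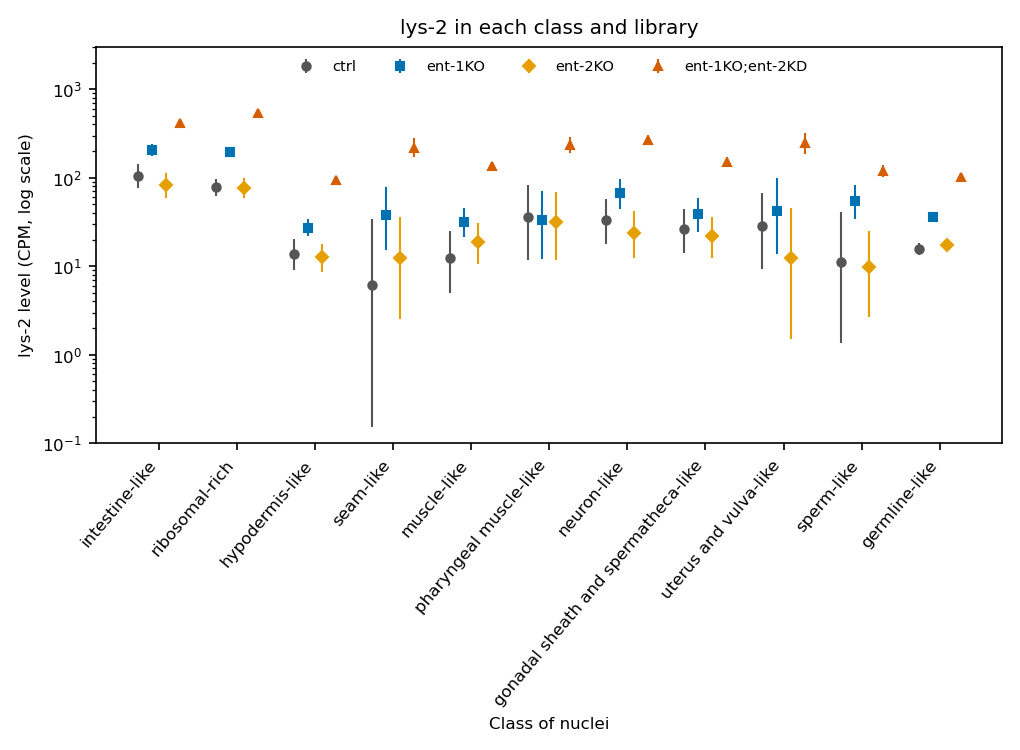
lys-2 level in CPM on a log scale in 11 classes of nuclei, 1 point per library with its exact 95% counting interval. The ent-1KO;ent-2KD library lies highest in every class, from 94.1 CPM in hypodermis-like to 535 CPM in the ribosomal-rich nuclei, and the intervals of ctrl and ent-2KO overlap throughout.

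Of the neighbours of lys-2, lys-3 lay at 2.44 CPM in ctrl, 10.3 CPM in ent-1KO, 0 CPM in ent-2KO and 21.5 CPM in ent-1KO;ent-2KD in intestine-like nuclei. It passed the minimum in 0 of the 11 classes. lys-1 differed less than lys-2 in intestine-like nuclei. In hypodermis-like nuclei its ratio of ent-1KO;ent-2KD to ctrl, 2.59 [2.08 to 3.19], was close to that of lys-2, 2.74 [2.21 to 3.38]. lys-1 held 319 CPM in ctrl, 447 CPM in ent-1KO, 313 CPM in ent-2KO and 621 CPM in ent-1KO;ent-2KD in intestine-like nuclei, with log2 ratios to ctrl of 0.48 [0.19 to 0.79], -0.03 [-0.38 to 0.32] and 0.95 [0.70 to 1.23]. The 2 libraries from the ent-1 mutant were again above the other pair, and in the ribosomal-rich nuclei the lys-1 ratio of ent-1KO;ent-2KD to ctrl was 1.73 [1.49 to 1.99]. lys-8, a lysozyme gene on chromosome II, held 85.3, 140.4, 94.0 and 138 CPM in intestine-like nuclei. lys-4 went the other way, at 543 CPM in ctrl, 488 CPM in ent-1KO, 271 CPM in ent-2KO and 236 CPM in ent-1KO;ent-2KD. Both libraries in which ent-2 was targeted were lower, with log2 ratios of -1.0003 [-1.33 to -0.68] in ent-2KO and -1.20 [-1.44 to -0.96] in ent-1KO;ent-2KD, against -0.16 [-0.40 to 0.09] in ent-1KO. In the ribosomal-rich nuclei the lys-4 ratios had the same signs and were smaller, at -0.53 [-0.82 to -0.25] and -0.35 [-0.56 to -0.13]. ilys-5 had intestine-like log2 ratios of 0.22, 0.18 and 0.26.

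A member was counted as past 2-fold if it had at least 50 UMIs in both libraries together and 20 CPM in either. The counts of members include lys-2, which had been named beforehand as raised. In intestine-like nuclei of ent-1KO;ent-2KD against ctrl, 19 members passed this minimum, of which 3 were higher (lys-2, cnc-8 and spp-14), 2 were lower (lys-4 and spp-23), and the median log2 ratio was 0.34. Of all 6559 genes that passed, 7.62% were past 2-fold higher and 9.07% lower, with a median of -0.14. In ent-1KO against ctrl, 18 members passed and 1 was higher (spp-14) and 0 lower, with 1.84% and 1.10% of all genes. In ent-2KO against ctrl, 15 passed, with 1 higher (spp-2) and 1 lower (lys-4), against 3.17% and 2.42%. This lys-4 ratio lay at the 2-fold limit and was short of it at resolution 1.6 (-0.997) and without the ribosomal limit on intestine-like nuclei (-0.68). In ent-1KO;ent-2KD against ent-1KO, 19 passed, with 2 higher (lys-2 and cnc-8) and 1 lower (lys-4), against 4.68% and 8.52%. The lys-2 ratio to ent-1KO lay at the limit too and was short of it, at 0.998, 0.991, 0.95 and 0.60, at resolution 0.4, at resolution 1.6, in nuclei with at least 1000 UMIs and with free RNA subtracted.

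**Figure D3:**
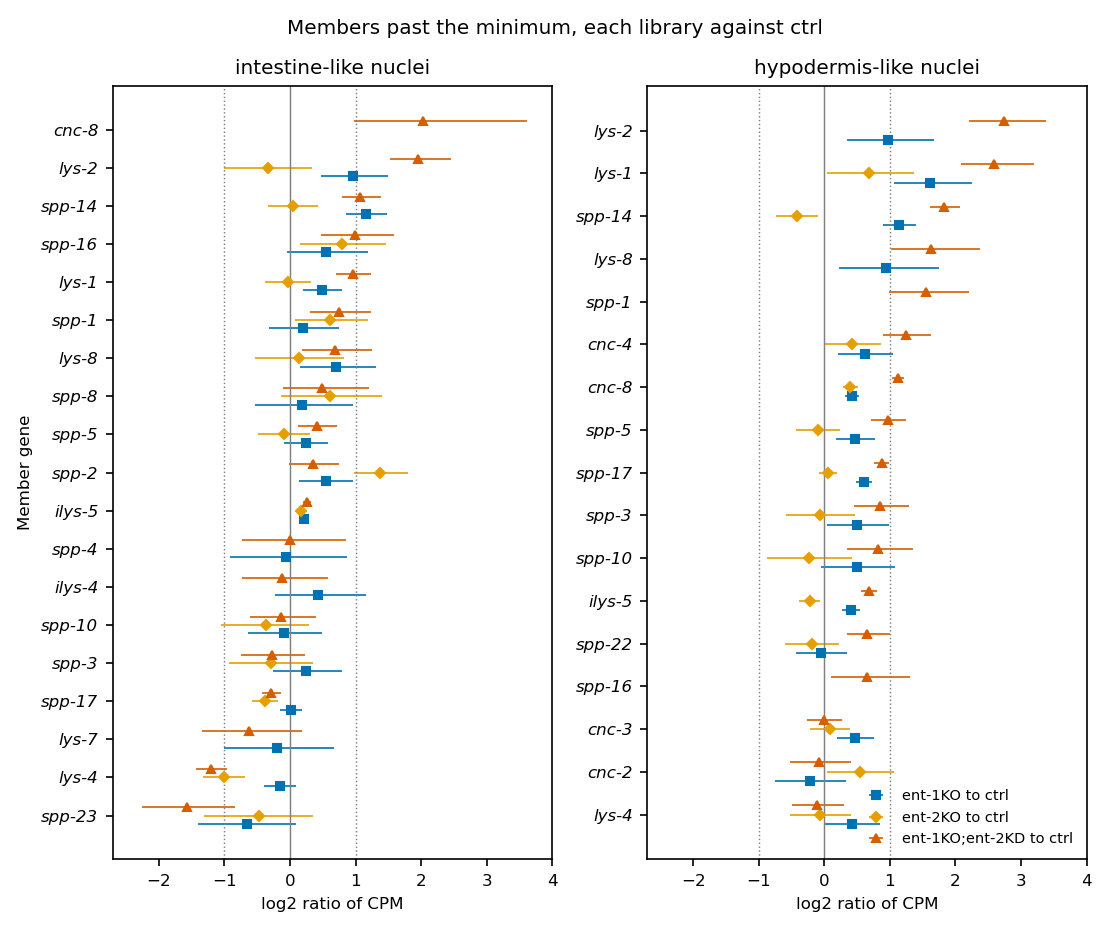
log2 ratio of CPM to ctrl for each member past the minimum in ent-1KO;ent-2KD, in intestine-like and hypodermis-like nuclei, with exact 95% counting intervals and dotted lines at 2-fold. In intestine-like nuclei lys-2 (1.96) and cnc-8 (2.03) lie at the top and lys-4 (-1.20) and spp-23 (-1.57) at the bottom, and in hypodermis-like nuclei lys-2 (2.74) and lys-1 (2.59) lie at the top.

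The saposin-like gene spp-14 was higher in both libraries from the ent-1 mutant. In intestine-like nuclei it held 263 CPM in ctrl, 589 CPM in ent-1KO, 271 CPM in ent-2KO and 557 CPM in ent-1KO;ent-2KD, with log2 ratios to ctrl of 1.16 [0.86 to 1.48], 0.04 [-0.34 to 0.43] and 1.08 [0.79 to 1.38]. The ratio of ent-1KO;ent-2KD to ent-1KO was -0.08 [-0.24 to 0.08]. With free RNA subtracted, the spp-14 ratio to ctrl was 0.63 [0.28 to 1.03] in ent-1KO;ent-2KD, short of 2-fold, and 1.12 [0.74 to 1.53] in ent-1KO. In the ribosomal-rich nuclei, where spp-14 was highest, it held 599, 1306, 445 and 2004 CPM, and there ent-1KO;ent-2KD was also above ent-1KO, by 0.62 [0.55 to 0.69]. The spp-14 log2 ratios to ctrl ran from 0.80 to 1.69 in ent-1KO and from 1.08 to 2.20 in ent-1KO;ent-2KD over the 11 classes compared. spp-2 instead stood highest in ent-2KO, with a log2 ratio to ctrl of 1.37 [0.98 to 1.80] in intestine-like nuclei, against 0.54 [0.14 to 0.97] in ent-1KO and 0.34 [-0.02 to 0.74] in ent-1KO;ent-2KD. spp-23 held 73.1 CPM (30 UMIs), 46.4 CPM (36 UMIs), 52.5 CPM (24 UMIs) and 24.8 CPM (45 UMIs), and only ent-1KO;ent-2KD was past 2-fold lower, at -1.57 [-2.26 to -0.84].

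The cnc-8 ratio in intestine-like nuclei rested on 6 UMIs in ctrl, 20 in ent-1KO, 7 in ent-2KO and 117 in ent-1KO;ent-2KD, or 14.6, 25.8, 15.3 and 64.4 CPM. These levels were below those in the ribosomal-rich nuclei, 26.2, 56.2, 31.4 and 103.9 CPM, and the share of nuclei with a UMI after thinning to 500 was 3.98% in intestine-like and 3.07% in germline-like nuclei of ent-1KO;ent-2KD, with 1.33% and 0.669% in ctrl. In CPM, germline-like nuclei held 11.4, 17.4, 14.8 and 41.7 CPM, and seam-like nuclei 36.4, 54.3, 114 and 116.2 CPM. The part of free RNA in the cnc-8 ratio of 2.03 in intestine-like nuclei was not tested, and the ratio is not read as a change there. With free RNA subtracted it had no defined direction, at -2.69 with an interval that was unbounded on both sides.

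In hypodermis-like nuclei the 4 caenacins past the minimum divided into 2 pairs. cnc-8 was higher in ent-1KO;ent-2KD than in ctrl by 1.13 [1.03 to 1.22] on the log2 scale, on 7619 against 1023 UMIs, and stood at 0.42 [0.32 to 0.53] in ent-1KO and 0.40 [0.28 to 0.51] in ent-2KO. The difference from ctrl was present within clusters, at 439 against 983 CPM in cluster 3 and 1074 against 2013 CPM in cluster 14. In cluster 26 cnc-8 lay at 377 CPM in ctrl, 893 CPM in ent-1KO, 962 CPM in ent-2KO and 734 CPM in ent-1KO;ent-2KD. There ent-1KO;ent-2KD was above ctrl but below ent-1KO and ent-2KO. With free RNA subtracted, the cnc-8 ratio in ent-1KO;ent-2KD was 0.58 [0.48 to 0.68], short of 2-fold. The subtraction took 46.6% of the UMIs of hypodermis-like nuclei in ctrl and 20.4% in ent-1KO;ent-2KD. The profile it removed includes the cnc-8 of these nuclei, and the part of both in the lower ratio was not tested. cnc-4 held 36.9 CPM in ctrl, 56.7 CPM in ent-1KO, 49.5 CPM in ent-2KO and 87.6 CPM in ent-1KO;ent-2KD, with a ratio of 1.24 [0.89 to 1.62] in the last, which was 0.69 [0.33 to 1.08] and short of 2-fold with free RNA subtracted. cnc-3 and cnc-2 did not follow over the class as a whole, with ratios of 0.00 [-0.26 to 0.27] and -0.08 [-0.53 to 0.41] in ent-1KO;ent-2KD. Small clusters differed from this. From ctrl to ent-1KO;ent-2KD, cnc-2 went from 0 to 99.4 CPM (26 UMIs) in cluster 26. cnc-3 went from 35.9 CPM (1 UMI) to 171 CPM (32 UMIs) in cluster 35. In cluster 3 they went from 31.3 to 22.6 CPM and from 90.0 to 88.2 CPM. The genes cnc-2, cnc-3 and cnc-4 lie within a few kb of one another, and the intervals of the cnc-4 and cnc-3 ratios did not overlap.

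**Figure D4:**
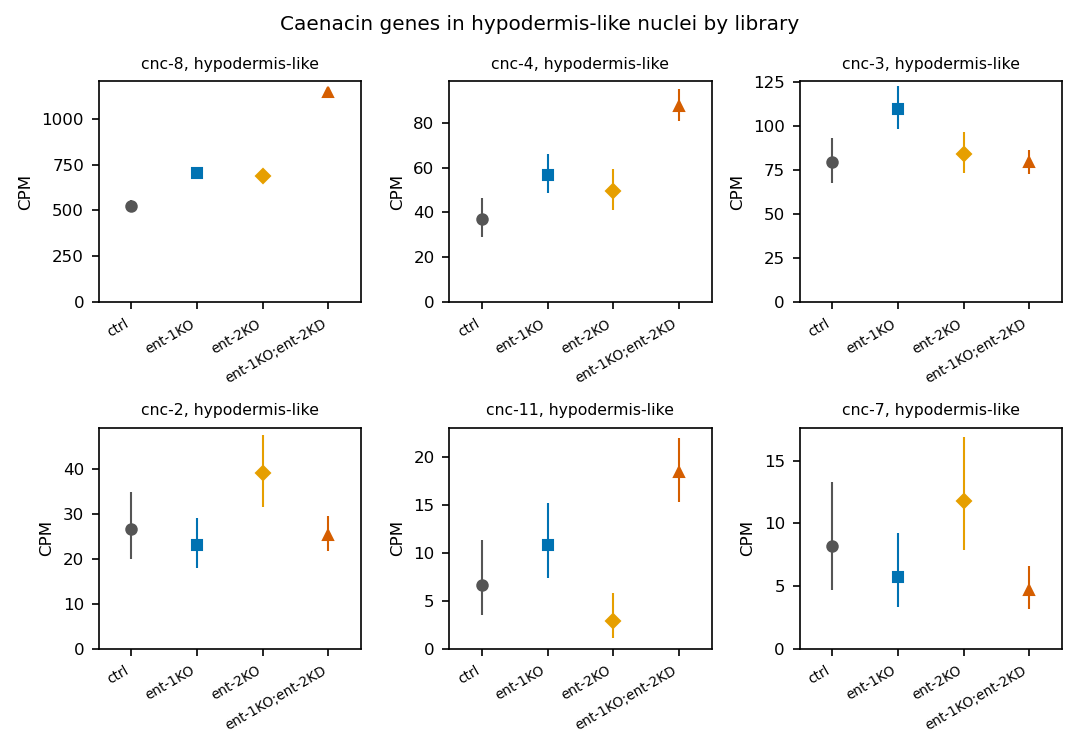
CPM of 6 caenacin genes in hypodermis-like nuclei of the 4 libraries, 1 point per library with its exact 95% counting interval and each panel on its own scale from 0. cnc-8 and cnc-4 are highest in ent-1KO;ent-2KD (1143 and 87.6 CPM), while cnc-3 and cnc-2 have nearly the same level in ctrl and ent-1KO;ent-2KD.

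Over the whole set in hypodermis-like nuclei, 17 members passed the minimum in ent-1KO;ent-2KD against ctrl, of which 7 were past 2-fold higher (lys-2, lys-1, spp-14, lys-8, spp-1, cnc-4 and cnc-8) and 0 lower. Of all 7117 genes that passed, 6.39% were higher and 29.7% lower, and the median log2 ratio was -0.45 over all genes and 0.88 over the members. Scaling by the median of ratios, which takes that shift out, put 14 of the members past 2-fold higher. The share of all genes past 2-fold was not computed under that scaling, so the 14 has no background beside it. Of the 7, lys-2, lys-1, spp-14, lys-8 and spp-1 are genes whose highest level was in the intestine-like or ribosomal-rich nuclei, and the summed intestine markers in the hypodermis-like nuclei went from 6982 to 10519 CPM with 29 of 30 and 30 of 30 of them counted. With free RNA subtracted, the ratios of these 5 were 3.40 for lys-2, 7.203 for lys-1, 3.87 for spp-14, 5.79 for lys-8 and 4.48 for spp-1, with no upper limit for lys-1 and lys-8. For lys-1 and lys-8 no ctrl UMIs were left, so the size of these ratios is set by the 0.5 UMIs added. The subtraction took 46.6% of the UMIs in ctrl and 20.4% in ent-1KO;ent-2KD, and its part in the larger ratios was not tested. In ent-1KO against ctrl, 15 members passed and 2 were higher (lys-1 and spp-14), with 1.98% of all genes higher and 3.27% lower. In ent-2KO against ctrl, 13 passed and 0 were past 2-fold either way, with 2.74% and 1.20% of all genes. In ent-1KO;ent-2KD against ent-1KO, 17 passed and 2 were higher (lys-2 and spp-1), with 3.73% and 14.5%.

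Outside the intestine and hypodermis, few differences lay in a member's own tissue. spp-10 in gonadal sheath and spermatheca-like nuclei held 432 CPM in ctrl (214 UMIs), 406 CPM in ent-1KO (228 UMIs), 259 CPM in ent-2KO (177 UMIs) and 150.03 CPM in ent-1KO;ent-2KD (232 UMIs). It was past 2-fold lower in ent-1KO;ent-2KD only. The log2 ratios to ctrl were -0.09 [-0.36 to 0.19] in ent-1KO, -0.73 [-1.03 to -0.44] in ent-2KO and -1.52 [-1.80 to -1.25] in ent-1KO;ent-2KD, where 7.63% of all genes in this class were past 2-fold lower. In muscle-like nuclei the spp-10 ratio in ent-1KO;ent-2KD was -0.57 [-0.77 to -0.36]. abf-5 in pharyngeal muscle-like nuclei held 437 CPM in ctrl (61 UMIs), 379 CPM in ent-1KO (69 UMIs), 128 CPM in ent-2KO (24 UMIs) and 274 CPM in ent-1KO;ent-2KD (110 UMIs). It was past 2-fold lower in ent-2KO only, at -1.75 [-2.51 to -1.07], where 4.51% of all genes were lower, and its neighbour abf-6 stood at -0.48 [-0.99 to 0.02]. ilys-4 in neuron-like nuclei was below ctrl in both libraries in which ent-2 was targeted, at -0.61 [-1.12 to -0.12] and -0.75 [-1.17 to -0.32], short of 2-fold. spp-22 and spp-15 in muscle-like nuclei stayed within 0.48 of ctrl on the log2 scale in each library.

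**Figure D5:**
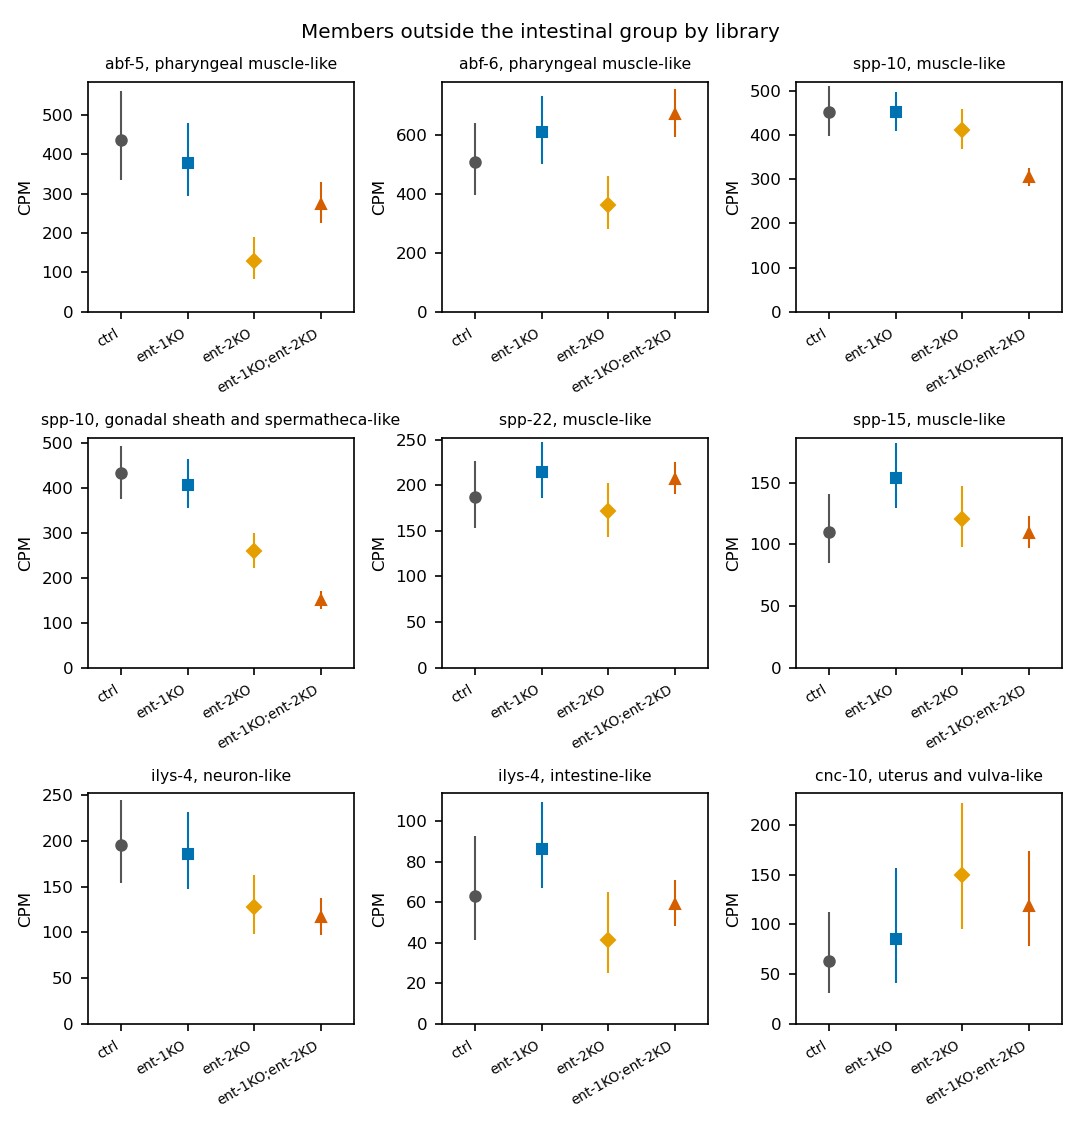
CPM of members whose highest class was not intestinal, by library, with exact 95% counting intervals and each panel on its own scale from 0. In gonadal sheath and spermatheca-like nuclei spp-10 lies at 432 CPM in ctrl and lowest, at 150.03 CPM, in ent-1KO;ent-2KD, and abf-5 is lowest in ent-2KO at 128 CPM.

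The members were set beside lists of other defense genes. In intestine-like nuclei of ent-1KO;ent-2KD against ctrl, 8 of 18 infection response effectors of other families passed the minimum and 7 of them were past 2-fold higher, with a median log2 ratio of 1.94, against 3 of 19 members with a median of 0.34 and 7.62% of all genes. A gene low in ctrl could pass the minimum only through its level in ent-1KO;ent-2KD. The count of 7 and the median of 1.94 therefore depend on the minimum, and no difference between the lists is read from them. The highest was C17H12.8, a gene induced by bacterial infection, at 21.9 CPM in ctrl, 102 CPM in ent-1KO, 63.4 CPM in ent-2KO and 239 CPM in ent-1KO;ent-2KD, and the lowest was irg-7 at 117, 112, 112 and 143 CPM. In ent-2KO against ctrl 1 of the 18 passed and 0 were past 2-fold. Of the 15 genes of the p38 MAP kinase pathway and regulators of epidermal peptide genes, which include the kinase cascade that controls many of these effectors, 11 passed in intestine-like nuclei of ent-1KO;ent-2KD and 0 were past 2-fold, from dkf-2 at -0.50 to skn-1 at 0.94. Of the 9 TGF-beta DBL-1 pathway genes, the signal known to act on cnc-2, 8 passed there and 0 were past 2-fold. cnc-2 itself was highest in hypodermis-like nuclei, for which the values of this list are not given here.

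In hypodermis-like nuclei, 8 of 9 epidermal nlp peptide genes, which encode antimicrobial peptides related to the caenacins, passed the minimum in ent-1KO;ent-2KD against ctrl and 3 were past 2-fold higher, with a median of 0.60, where 6.39% of all genes were higher and 29.7% lower. The highest was nlp-31, at 215 CPM in ctrl, 416 CPM in ent-1KO, 374 CPM in ent-2KO and 570.0 CPM in ent-1KO;ent-2KD, and the lowest nlp-28, at 561, 507, 723 and 527 CPM. The ent-1KO and ent-2KO libraries had 1 and 2 of the 8 past 2-fold higher, against 1.98% and 2.74% of all genes, led by nlp-25 at 71.2 CPM in ctrl, 186 CPM in ent-1KO and 198 CPM in ent-2KO. Of the transcription factors of intestinal and epidermal defense, 8 passed in the hypodermis-like nuclei of ent-1KO;ent-2KD and 1 was past 2-fold lower, against 29.7% of all genes. This was cebp-2 at -2.48, which was lowest in the intestine-like nuclei as well, at -1.30.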

How the data were processed

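Nuclei were profiled on the 10x platform. The deposited files hold UMI counts per gene and nucleus, which the authors made with Cell Ranger (6.0 in their processing notes, 6.1.2 in the matrix headers) on the WS282 annotation. Whether intronic reads were counted is not given in the sources used here. Barcodes of each library had at least 500 UMIs. No nucleus failed the limits of 200 genes and 10% mitochondrial UMIs. Scrublet scores removed 0.8% of nuclei as doublets for each 1000 loaded barcodes, 1089 to 1784 per library, and the study used another doublet caller. Seurat 5.3.0 (R 4.3.3) integrated the libraries on 2000 variable genes less 6 members, with 30 dimensions and resolution 0.8.

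A cluster was named after the marker list with the highest mean log2 ratio to the median cluster (10 CPM added), if that mean was at least 0.5, 3 markers were raised, ribosomal protein UMIs were below 1.5 times the median cluster and its 10 leading genes did not go against the name. The mean replaced the median after the hypodermis clusters had gone unnamed, so this rule was chosen after the data were seen, and class sizes may differ from the study's for that reason. The largest hypodermis-like cluster had 11 of 26 hypodermis markers raised. With the median, hypodermis-like nuclei numbered 40, 59, 85 and 75 in ctrl, ent-1KO, ent-2KO and ent-1KO;ent-2KD. The lys-2 ratio of ent-1KO;ent-2KD to ent-1KO in them was then 0.88 [-0.16 to 2.18], against 1.77 with the mean. Counts were summed per class and library and divided by the class total (CPM). log2 ratios had 0.5 UMIs added, and intervals are exact Poisson or Clopper-Pearson intervals at 95%. PCR duplicates were collapsed by UMI, and intervals cover counting error only. Embryo-like nuclei (7 in ent-1KO;ent-2KD) and classes under 50 nuclei in a library were not compared. The ratio code was tested on simulated data.

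Named were every member past 2-fold in intestine-like or hypodermis-like nuclei, lys-2 in every class, the 2 members of each family with the highest share in a class, and the highest and lowest gene of each other list. cnc-10 and abf-4 in small clusters, and the neighbours and other members named for comparison, were chosen after their values were seen. Members and lists were chosen with earlier results of these data known, and lys-2 was named beforehand as raised. Coordinates are from the Ensembl annotation of WBcel235. Sequences are not used here. Python 3.11.15, numpy 2.4.6 and scipy 1.17.1 were used.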

Additional observations from a re-analysis of the deposited data

Results flagged for a closer look

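spp-10 lay on opposite sides of ctrl in 2 classes of nuclei in ent-1KO;ent-2KD against ctrl. Its log2 ratio was -1.52 [-1.80 to -1.25] in gonadal sheath and spermatheca-like nuclei and 1.17 [0.10 to 2.64] in pharyngeal muscle-like nuclei. The second value rests on 7 UMIs in ctrl and 48 in ent-1KO;ent-2KD, at 50.1 and 119.6 CPM, and the summed intestine markers in that class went from 10470 to 21620 CPM, whose part in it was not tested. In sperm-like nuclei spp-10 was also past 2-fold higher, at 1.35 [-0.05 to 3.88] on 3 UMIs in ctrl, an interval that includes 0. The difference between the classes itself was not tested, since each condition has 1 library.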

How the results depend on the processing

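No paired analysis was possible because the labels give no replicate numbers and each condition has 1 library. Of 325 values recomputed under alternatives, 263 counted as the same, 60 moved and 2 changed sign. A ratio counted as the same if it lay within the counting interval of the main value, and a count if it was equal or close. Such a ratio could still fall short of 2-fold. Without the ribosomal limit, this held in intestine-like nuclei for lys-4 in ent-2KO against ctrl (-0.68). It also held there for cnc-8 in ent-1KO;ent-2KD against ent-1KO (0.82). The log2 ratio of lys-2 in intestine-like nuclei stayed positive in ent-1KO;ent-2KD under every alternative run. It was 1.37 to ctrl and 0.60 to ent-1KO with free RNA subtracted, and 2.46 and 1.27 without the ribosomal limit, which adds the ribosomal-rich nuclei to the class. The subtraction took 34.5% to 59.6% of the UMIs of intestine-like nuclei, less in ent-1KO;ent-2KD than in the other libraries. For cnc-8 in intestine-like nuclei it gave -2.69 against ctrl and -1.61 against ent-1KO, both with intervals unbounded on either side, so that neither has a defined direction.

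Counts of members past 2-fold were small and moved easily. The share of all genes past 2-fold was not computed under the alternatives, so the counts below have no background beside them. In intestine-like nuclei of ent-1KO;ent-2KD against ctrl, the 3 higher became 5 with 10 UMIs and no CPM minimum, 1 with free RNA subtracted and 5 with median-of-ratios scaling, and the 2 lower became 0 without the ribosomal limit. Against ent-1KO, the 2 higher became 4 with 10 UMIs, 0 with free RNA subtracted and 1 without the ribosomal limit, with nuclei of at least 1000 UMIs or at resolution 0.4 or 1.6, and the 1 lower became 3 with free RNA subtracted, 0 with median-of-ratios scaling, and 2 without integration or with nuclei of at least 1000 UMIs. In ent-2KO against ctrl, the 1 higher became 2 and the 1 lower 2 with 10 UMIs, and the lower became 0 without the ribosomal limit and at resolution 1.6. In ent-1KO against ctrl, the 1 higher became 3 without the ribosomal limit. In hypodermis-like nuclei of ent-1KO;ent-2KD against ctrl, the 7 higher became 12 with 10 UMIs, 11 with free RNA subtracted and 14 with median-of-ratios scaling. The 11 no longer held cnc-8 (0.58) or cnc-4 (0.69). Against ent-1KO, the 2 higher became 5, 6 and 4 under these settings, 4 at resolution 0.4 and 1 with classes named by the median marker, an alternative chosen after seeing the data, and the 0 lower became 1 with 10 UMIs. In ent-1KO against ctrl the 2 higher became 5, 6 and 4 under those settings, and in ent-2KO against ctrl the 0 higher became 2 with 10 UMIs and 4 with free RNA subtracted, and the 0 lower 2 with 10 UMIs. The cause of these moves was not tested. Depth limits the small differences: on 43 lys-2 UMIs in ctrl and 38 in ent-2KO, the interval of the lys-2 ratio in intestine-like nuclei ran from -1.003 to 0.33.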
